A study of Homo sapiens with 2 samples.

Results

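The stress kinase MAP3K4, the 3 GADD45 proteins that activate it and 6 genes of the p38 and JNK pathways below it were examined in RKO cells after knockdown of the splicing factor SRSF2. These 10 genes were selected on 2 grounds. MAP3K4 was chosen by its splicing, because the study lists one of its cassette exons among the exons changed between these same libraries. The other 9 genes were chosen by their known place in the pathway, though with earlier results of these data already known. The gene table lists 54261 symbols, all 10 genes among them, and 8 of the 10 reached a mean of 1 CPM (the counts of a gene relative to the total of its library), the level below which no ratio was counted. GADD45G and MAP2K6 did not reach it and are described by their counts.

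RKO is a human colon carcinoma cell line. The si-NC library came from cells transfected with a negative control siRNA, and the si-SRSF2 library from cells transfected with an siRNA against SRSF2. Both came from the same parental line in the same serum-containing medium, and the labels give no other allele or agent and no time. They are called the control and the knockdown library below. Each condition is 1 library, so that none of the differences given has a replicate check and the conditions could not be tested against each other. RNA was read from poly(A) libraries, so the values are RNA amounts and say nothing of kinase activity or protein.

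MAP3K4, also called MEKK4, is a MAP kinase kinase kinase that is kept inactive by its own N-terminal part. GADD45A, GADD45B and GADD45G are small stress-induced proteins that bind MAP3K4 and release its kinase domain. MAP3K4 then phosphorylates the MAP2 kinases, of which MAP2K3 and MAP2K6 activate p38 (MAPK14), MAP2K4 activates JNK (MAPK8 and MAPK9), and MAP2K4 can also act on p38. GADD45A is induced by DNA damage, and GADD45B by NF-κB and TGF-β signalling.

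The MAP3K4 region that the study amplified by RT-PCR is shown first, since MAP3K4 was chosen by its splicing. The study's RT-PCR primers for MAP3K4 were matched to the GENCODE release 44 transcripts of the gene, on the GRCh38 build that the authors also used.
MAP3K4 forward primer: acctcgatgccatagtgacc
MAP3K4 reverse primer: tggacccacttgaatctcct
Between them the annotation holds 1 exon that some coding transcripts carry and others lack. It is exon 17 of the 27 exons of the MANE transcript, at chr6:161098278-161098427 on the plus strand, and it is 150 bp long, so that skipping it keeps the reading frame. Of the 4 coding transcripts that both primers match, 2 carry the exon and 2 lack it. The predicted product is 350 bp with the exon and 200 bp without it. The exon adds 50 codons to the reading frame and touches codons 1175 to 1225 of 1608. The kinase domain of MAP3K4 lies C-terminal to it.

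The exon is printed below 5′ to 3′, with every match to the SRSF2-binding consensus in capitals. That consensus has C or G at each of its first positions, then any base, then G. It was searched on the transcribed strand only, since it is read in RNA, and overlapping matches were counted.
MAP3K4 exon 17: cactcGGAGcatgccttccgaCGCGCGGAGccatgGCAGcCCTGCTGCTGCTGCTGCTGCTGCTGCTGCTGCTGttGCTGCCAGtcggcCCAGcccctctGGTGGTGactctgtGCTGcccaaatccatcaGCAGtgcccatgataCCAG
The exon held 25 matches, which together covered 82 of its 150 bases. The form GCNG was found 15 times, among others in a run of 11 CTG units. The form CCNG was found 4 times, as was the form with GGNG, and the form with CGNG was found 2 times. Of the 1041 internal coding exons of exactly 150 bp in canonical transcripts, 99.5% held at least 1 match, the median was 9 matches, and 3.55% held 25 or more. GC content was 64.7% in the exon, against a median of 50.7% over those exons. A match is a string of letters and was not tested for binding, and the exons on either side were not searched. In the study's CLIP of SLMAP and CETN3, SRSF2 bound a flanking constitutive exon. Its binding to the alternative exons of those genes was low or negligible.

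The exon follows an intron of 1101 bp and precedes one of 3464 bp. Its splice sites are printed with the AG that ends the upstream intron and the GT that starts the downstream intron in capitals.
3′ splice site, chr6:161098253-161098282: cctgaagcttttcttcttgtcttAGcactc
5′ splice site, chr6:161098423-161098452: accagGTagtctcaccccaccagtgtcccg

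**Figure D1:**
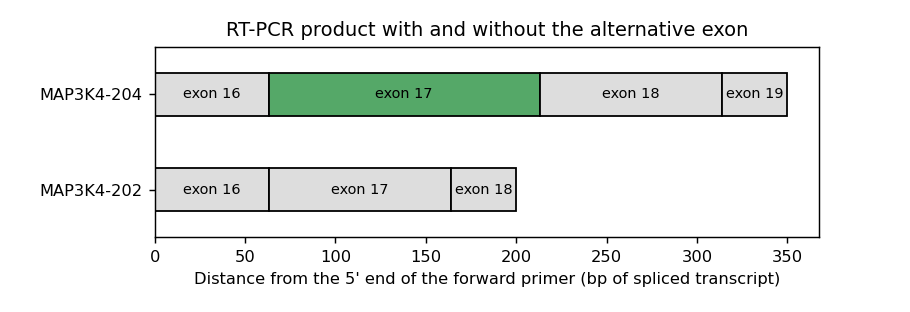
Predicted RT-PCR products of MAP3K4 in base pairs from the 5′ end of the forward primer, drawn to scale from the annotation; exons are numbered within each transcript. The product of the MANE transcript is 350 bp with the 150 bp exon 17 in green, and that of a coding transcript without the exon is 200 bp.

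The siRNAs are printed as the strand with the sequence of the target, without the 2-base overhang. Capitals mark the stretch that pairs with bases 2 to 8 of the opposite, guide strand.
si-SRSF2: uccaaauccagGUCGCGAu
si-NC: uucuucgaacgUGUCACGu
The whole 19-base sequence of si-SRSF2 matched SRSF2 alone among the canonical transcripts of 20020 coding genes, and thus 0 of the 10 genes. The 7-base site GTCGCGA, searched on the transcribed strand, was in the canonical transcripts of 0 of the 10 genes and of 1.79% of 20020 coding genes. The site of si-NC, TGTCACG, was also in 0 of the 10, and in 6.27% of all.

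The libraries held 19931360 counts in the control and 14512802 in the knockdown. SRSF2 itself had 1964 counts in the control and 713 in the knockdown, or 98.5 and 49.1 CPM, so that 49.85% of the control level was left. The log2 ratio, taken on CPM + 0.5 with library sizes scaled by edgeR's TMM method, was -0.997, with a 95% Clopper-Pearson interval of -1.13 to -0.88. Here and below the interval is that of the ratio of the counts, without the added 0.5 CPM. SRSF2 overlaps MFSD11 (225 and 119 counts) and another coding gene on the opposite strand, and MIR636 (1 count in each library) on its own. With the strand setting of the counting unknown, their reads cannot be told apart from those of SRSF2 where they overlap. All intervals cover counting error only, since reads made by PCR without molecular identifiers are not independent molecules and the variation between transfections was not sampled. A lower level in these bulk libraries can mean fewer cells of a kind or less RNA per cell, which cannot be told apart. Of 8 colon epithelial markers 4 reached 1 CPM, with KRT8 at 27.4 and 42.6 CPM and CDX2 at 10.6 and 10.9, whereas LGALS4 had no count and VIL1 and KRT19 had 1 in each library. The summed level of the 8 was 79.4 CPM in the control and 97.0 in the knockdown, with most of the difference in KRT8, while the intervals of EPCAM, KRT18 and CDX2 held 0. The 4 leukocyte markers summed to 0.1505 and 0.0689 CPM and the 5 stromal and endothelial ones to 1.15 and 1.24 CPM, with PECAM1, DCN and CD3E at 0 in both.

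The RNA total of MAP3K4 did not differ between the libraries beyond counting error. The gene (ENSG00000085511.20) lies on chromosome 6 of GRCh38 from 160991727 to 161117385. It had 859 counts in the control and 632 in the knockdown, which is 43.1 and 43.5 CPM. The log2 ratio was 0.01, with an interval of -0.14 to 0.16, so that a difference of the total was not detectable at this depth. A gene total sums the transcripts with and without exon 17 and cannot tell them apart. The annotated gene that overlaps MAP3K4 is the antisense RNA MAP3K4-AS1, and with the strand setting of the counting unknown its reads cannot be told apart from those of MAP3K4.

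Among the GADD45 activators, GADD45B was lower and GADD45A higher in the knockdown. GADD45B (ENSG00000099860.9, chromosome 19 from 2476122 to 2478259) had 787 counts in the control and 395 in the knockdown, or 39.5 and 27.2 CPM. Its log2 ratio was -0.53 (95% interval -0.72 to -0.36), the ratio farthest from 0 among the 8 genes above 1 CPM. The knockdown level was 68.9% of the control level, and 4.57% of all genes tested had a lower ratio. GADD45A (ENSG00000116717.13, chromosome 1 from 67685201 to 67688334) had 2298 and 1919 counts, or 115.3 and 132.2 CPM. Its log2 ratio was 0.20 (0.11 to 0.29), which makes it 1.15-fold higher. GADD45G, on chromosome 9 from 89605012 to 89606555, had few counts, 16 and 7, or 0.803 and 0.482 CPM. Its interval ran from -2.26 to 0.63, and no direction can be read from it.

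The sum of the GADD45 genes did not differ beyond counting error. The 3 genes together had 155.6 CPM in the control and 159.9 in the knockdown, a log2 ratio of 0.04 (-0.04 to 0.12). Their makeup differed, and this comparison does not depend on how the libraries were scaled. GADD45B made up 25.4% of the 3101 GADD45 counts in the control (95% Clopper-Pearson interval 23.85% to 26.95%) and 17.02% of 2321 in the knockdown (15.5% to 18.6%). GADD45A made up 74.1% and 82.7%, and GADD45G 0.516% and 0.302%. Per length of transcript, GADD45A stood 2.96 times above GADD45B in the control and 4.93 times in the knockdown. The table also lists GADD45AP1, a pseudogene of GADD45A, at 0 counts in both libraries.

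MAP2K3 and MAP2K4 were lower in the knockdown. MAP2K3, which activates p38, had 1182 counts in the control and 724 in the knockdown, or 59.3 and 49.9 CPM, with a log2 ratio of -0.25 (-0.39 to -0.12). MAP2K4, which activates JNK and p38, had 1123 and 718 counts, or 56.35 and 49.5 CPM, with a log2 ratio of -0.19 (-0.32 to -0.05). Their intervals overlapped, and MAP2K4 made up 48.7% of the counts of the pair in the control (46.7% to 50.8%) and 49.8% in the knockdown (47.2% to 52.4%). MAP2K6, the other p38 activator, had 0 counts in the control, which allows up to 0.1505 CPM (a floor of 3 counts), and 1 count in the knockdown, so no ratio is given. Within the MAP2K4 locus lies RPL21P122, a pseudogene on the other strand with 1 count and 0, and MAP2K4 also overlaps MIR744 and RNU11-2P, both at 0, and a processed pseudogene on its own strand whose reads were not analysed here. The sum of the 3 was 115.7 CPM in the control and 99.4 in the knockdown, a log2 ratio of -0.22 (-0.31 to -0.12).

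Of the JNK genes, MAPK9 was lower in the knockdown, and whether MAPK8 differed beyond counting error depended on the scaling. MAPK9, which encodes JNK2, had 2459 counts in the control and 1468 in the knockdown, or 123.4 and 101.1 CPM, and a log2 ratio of -0.29 (-0.38 to -0.19). MAPK8, which encodes JNK1, had 2764 and 2108 counts, or 138.7 and 145.2 CPM, and a log2 ratio of 0.07 with an interval that held 0 (-0.02 to 0.15). MAPK8 made up 52.9% of the JNK counts in the control (51.6% to 54.3%) and 58.95% in the knockdown (57.3% to 60.6%). The intervals of the 2 shares did not overlap. MAPK10, which encodes the JNK of neural tissue, had 1 count in the control and 0 in the knockdown. MAPK9 and MAPK14 each overlap a processed pseudogene on the other strand whose reads were not analysed here. MAPK14, which encodes p38α, had 3027 and 2309 counts, or 151.9 and 159.1 CPM, with a log2 ratio of 0.07 (-0.01 to 0.15). With upper-quartile factors in place of TMM the intervals of MAPK8 (0.01 to 0.17) and MAPK14 (0.01 to 0.17) left out 0.

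**Figure D2:**
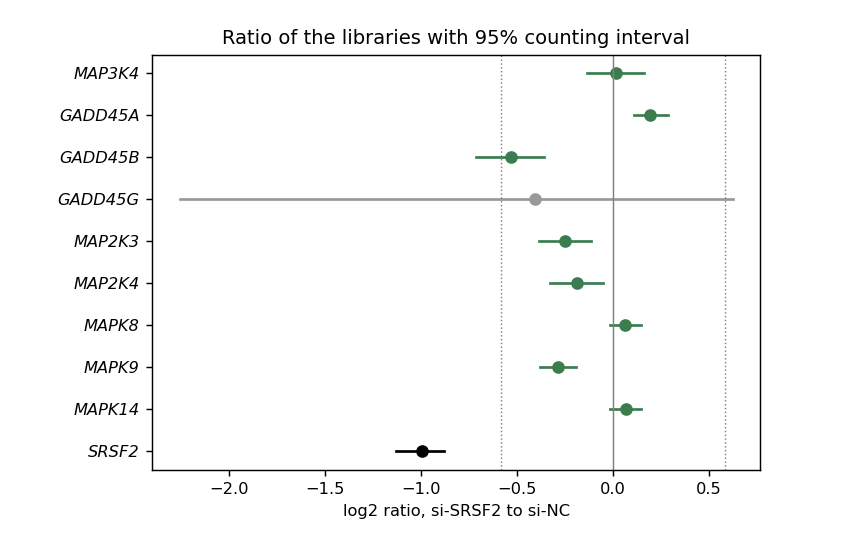
Log2 ratio of the knockdown to the control library (x axis) for 9 of the 10 genes and for SRSF2, with bars for the 95% Clopper-Pearson interval of counting error and dotted lines at 1.5-fold. Of the 8 genes above 1 CPM, GADD45B at -0.53 lies nearest to a 1.5-fold line, MAP3K4, MAPK8 and MAPK14 have intervals that hold 0 (with upper-quartile factors MAP3K4 alone of them), GADD45G (grey) was below 1 CPM, and MAP2K6 is left out.

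**Figure D3:**
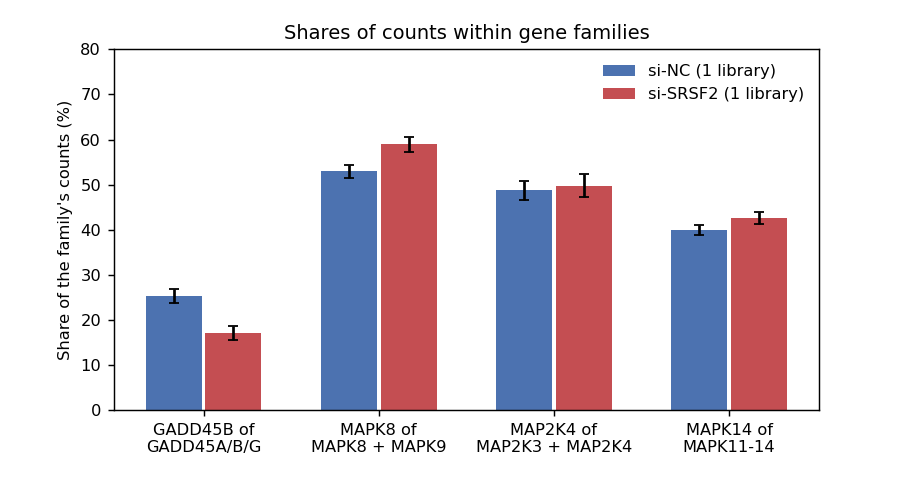
Share of a gene family's counts (percent, y axis) taken by the named gene in each library, with 95% Clopper-Pearson intervals. GADD45B went from 25.4% to 17.02% of GADD45 counts and MAPK8 from 52.9% to 58.95% of JNK counts, while MAP2K4 stayed near 50% of its pair with overlapping intervals (48.7% and 49.8%).

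None of the 8 genes was 2-fold changed, against 1.35% of the 12620 genes tested. None reached 1.5-fold in either direction, against 4.18% of all genes that were at least 1.5-fold higher and 3.52% at least 1.5-fold lower. The interval lay above a ratio of 1 for 1 of the 8, GADD45A, where 21.0% of all genes tested did so. With upper-quartile factors it did so for 3 of the 8, and for 23.9% of all genes. It lay below for 4 of the 8, GADD45B, MAP2K3, MAP2K4 and MAPK9, where 26.7% of all genes tested did so (also 4 with upper-quartile factors, and 23.7%). These intervals narrow with the count, and all 8 genes had a mean of at least 30 CPM. Among the 6657 genes at that level, a limit set after the data were seen, 24.8% had an interval above 1 and 33.8% below. The median log2 ratio was -0.09 over the 8 genes and -0.02 over all genes tested, and the median size of the log2 ratio, whatever its sign, was 0.19 and 0.17.

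Levels were compared between genes per length, as CPM per kb of the canonical transcript. GADD45A was the highest of the 10 in both libraries, with 85.3 CPM per kb in the control and 97.8 in the knockdown. MAPK14 followed, with 36.0 and 37.7. In the control library, GADD45B (28.8), MAP2K3 (26.3), MAPK9 (25.7) and MAPK8 (23.9) came next, and the counting intervals of neighbours in this order overlapped (26.8 to 30.9, 24.8 to 27.8, 24.7 to 26.75 and 22.99 to 24.8). In the knockdown GADD45B was in the sixth place with 19.85, below MAPK8, MAP2K3 (22.1) and MAPK9 (21.1). Its interval of 17.9 to 21.9 overlapped those of MAP2K3 (20.5 to 23.8) and MAPK9 (20.01 to 22.2) but not that of MAPK8 (23.95 to 26.1). MAP2K4 had 14.9 and 13.1 CPM per kb. MAP3K4 was the lowest of the genes above 1 CPM, with 7.84 and 7.92, and GADD45A stood 10.9 times above it in the control and 12.35 times in the knockdown. With the union of all annotated exons as the length the levels of the 9 genes other than MAP2K6 were lower, and MAPK8 and MAPK9 exchanged places in the control. In the knockdown GADD45B (12.7) then lay above MAPK9 (11.3), in the fifth place and not the sixth.

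**Figure D4:**
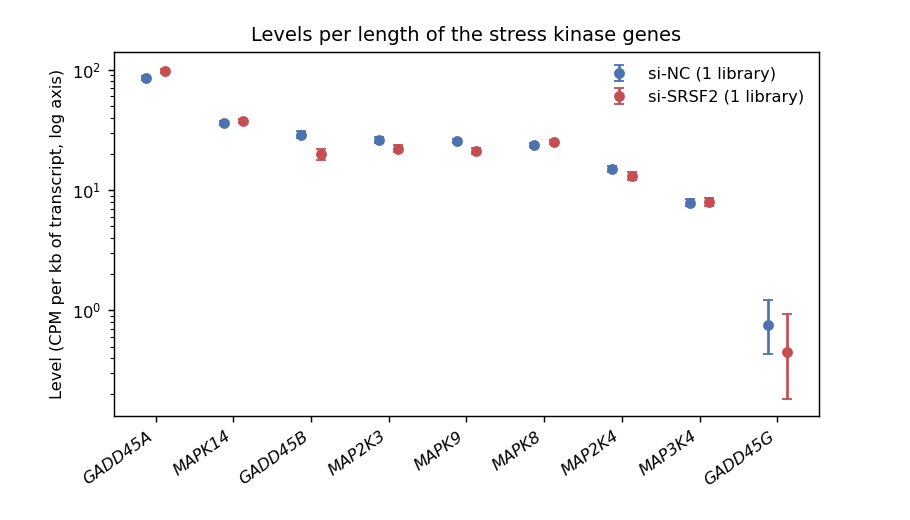
Level of 9 of the 10 genes in CPM per kb of canonical transcript (y axis, log scale) in the control and knockdown libraries, with 95% Clopper-Pearson intervals of counting error; MAP2K6, with 0 and 1 counts, is left out. GADD45A is highest at 85.3 and 97.8, and GADD45B goes from 28.8 to 19.85, from the third to the sixth place (the fifth with the length of all annotated exons).

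The other genes of the pathway were taken from 10 lists with 101 distinct genes in the table, of which 93 were tested. Of these 93, 20 (21.5%) had an interval above a ratio of 1, 34 (36.6%) below and 39 across it. Over all genes tested the shares were 21.0% and 26.7%, and among genes of at least 30 CPM 24.8% and 33.8%, and the counts of each list below are to be read against these. The median over the 93 was -0.07, and 3 were at least 1.5-fold higher, DUSP16 of low control counts among them, and 2 at least 1.5-fold lower. With upper-quartile factors 27 lay above and 30 below. Of the 92 with at least 1 CPM in both libraries, which leaves out DUSP16, 19 lay above and 34 below. Of those 92, 2 were at least 1.5-fold higher.

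Of 15 MAP3 kinases tested other than MAP3K4, 5 (33.3%) had an interval below a ratio of 1, 1 above and 9 across it, with a median log2 ratio of -0.12. The lowest was MAP3K20, listed under its older symbol ZAK, a kinase activated by stalled ribosomes, with 221.2 CPM in the control and 172.5 in the knockdown and a log2 ratio of -0.36 (-0.43 to -0.29). The highest ratio was that of MAP3K10 (0.20, interval -0.01 to 0.42, which left out 0 with upper-quartile factors), and TAOK1 was the most abundant, at 367.0 and 360.8 CPM.

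Of 11 other MAP2 kinases and MAP kinases, 3 had an interval above a ratio of 1 and 3 below (27.3% each), with a median of 0.06. MAPK12 (p38γ) was the highest, from 39.1 to 47.6 CPM with a log2 ratio of 0.28 (0.13 to 0.43). MAPK13 (p38δ) was the lowest, from 146.3 to 128.4 CPM with -0.19 (-0.27 to -0.10). MAPK14 made up 39.97% of the counts of the 4 p38 genes in the control (38.9% to 41.1%) and 42.6% in the knockdown (41.3% to 43.9%). MAP2K7, the other activator of JNK, had 45.9 and 47.9 CPM and a log2 ratio of 0.06 (-0.08 to 0.21), and MAP2K2, an activator of ERK, had 0.28 (0.17 to 0.39); both were named after their values were seen. MAP2K1, an activator of ERK, was the most abundant of the list, at 170.8 and 161.3 CPM.

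Among 5 binding partners of MAP3K4, RAC1, a small GTPase, went from 172.2 to 241.8 CPM, a log2 ratio of 0.49 (0.42 to 0.56). AXIN1, a scaffold that binds MAP3K4, had 40.2 and 34.4 CPM with a log2 ratio of -0.22 (-0.39 to -0.06). CDC42, the other GTPase of the list and its most abundant gene, had 279.7 and 283.3 CPM. Of 8 scaffolds of JNK and p38, 1 had an interval above a ratio of 1 and 3 below (12.5% and 37.5%). Their median was -0.02, but -0.11 over those with a mean of at least 5 CPM and 0.01 with upper-quartile factors, so no direction is read from it. MAPK8IP1 (JIP1), which holds JNK with its upstream kinases, was the only one past 1.5-fold, and it rested on few counts, 22 in the control and 43 in the knockdown, with a log2 ratio of 1.11 (0.65 to 2.24), which was 0.68 with a pseudocount of 2 CPM. SPAG9 (JIP4) had 202.6 and 183.1 CPM and MAPK8IP3 (JIP3) 94.3 and 84.5. TAB1, which can activate p38 by binding it, had the highest ratio among those above 5 CPM, 0.15 (-0.04 to 0.34).

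The list of MAP kinase phosphatases was drawn up for p38 and JNK but also holds phosphatases that act mainly on ERK, such as DUSP5, DUSP6 and DUSP7. Of 11 tested, 5 had an interval above a ratio of 1, DUSP16 among them, and 4 below (45.5% and 36.4%). Over all genes the shares were 21.0% and 26.7%, and over genes of at least 30 CPM 24.8% and 33.8%. Of the 10 with at least 1 CPM in both libraries, which leaves out DUSP16, 4 lay above and 4 below, where 20.6% and 26.9% of all such genes did. DUSP1, an early-induced phosphatase of p38 and JNK, had 2411 counts in the control and 1028 in the knockdown, or 121.0 and 70.8 CPM, with a log2 ratio of -0.77 (-0.88 to -0.67). DUSP16, a phosphatase of JNK, went the other way, from 8 counts to 41, a log2 ratio of 1.88 (1.70 to 4.12). It was at 0.401 CPM in the control and reached the mean of 1 CPM only through the knockdown library, and its ratio ran from 1.01 with a pseudocount of 2 CPM to 2.54 with one of 0.1 CPM. DUSP4 had 30 and 48 counts and a log2 ratio of 0.92 (0.45 to 1.84), which was 0.60 with a pseudocount of 2 CPM. PPM1D, a phosphatase that acts on p38, had 14.35 and 20.1 CPM with 0.47 (0.25 to 0.73). DUSP5, which acts on ERK, was the most abundant, at 224.6 and 206.4 CPM.

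Downstream of p38, 7 kinases were tested, with 2 intervals above a ratio of 1 (28.6%) and 4 below (57.1%). Over all genes the shares were 21.0% and 26.7%, and over genes of at least 30 CPM 24.8% and 33.8%. With upper-quartile factors 3 of the 7 kinases lay below, where 23.7% of all genes did. MKNK2, which phosphorylates EIF4E, was the highest at 0.30 (0.18 to 0.41) and RPS6KA5 (MSK1) the lowest at -0.34 (-0.68 to -0.04). MAPKAPK2, the main effector kinase of p38, had 106.4 and 98.2 CPM and a log2 ratio of -0.12 (-0.21 to -0.02), an interval that held 0 with upper-quartile factors. Of 10 transcription factors that p38 or JNK phosphorylate, 3 had an interval above a ratio of 1 and 4 below. JUN, the founding JNK substrate, was the most abundant, at 540.9 and 514.4 CPM with a log2 ratio of -0.07 (-0.12 to -0.03). ATF2, a substrate of both, was the lowest, at 95.5 and 81.2 CPM with -0.23.

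Of 12 AP-1 and immediate early genes, 2 had an interval above a ratio of 1 (16.7%) and 5 below (41.7%), with a median of -0.05. Over all genes the shares were 21.0% and 26.7%, and over genes of at least 30 CPM 24.8% and 33.8%. With upper-quartile factors 4 of the 12 lay below. CXCL8, a chemokine whose mRNA is held stable by p38 signalling, was the lowest and the only one past 1.5-fold, with 326 counts in the control and 146 in the knockdown, or 16.4 and 10.1 CPM, and a log2 ratio of -0.67 (-0.99 to -0.42). FOSL1, an AP-1 subunit, was the highest, from 154.1 to 191.6 CPM with 0.31 (0.24 to 0.39). The 6 genes tested from the list drawn up for partners of GADD45 proteins had a median of 0.05. CDKN1A, the CDK inhibitor that binds GADD45A, had 157.7 and 183.3 CPM and a log2 ratio of 0.22 (0.14 to 0.29), against 0.20 for GADD45A. PCNA was the most abundant of that list, at 179.4 and 188.6 CPM, and CRIP2 the lowest at -0.28 (-0.54 to -0.03). Whether CRIP2 binds a GADD45 protein was not checked here. Of 12 known regulators of GADD45 transcription, 2 had an interval above a ratio of 1 and 4 below (16.7% and 33.3%). SMAD4, which acts in TGF-β signalling, was the lowest, at 88.2 and 66.97 CPM with -0.39 (-0.51 to -0.28), and MYC, a repressor of GADD45A, was the most abundant, at 265.0 and 260.9 CPM.

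**Figure D5:**
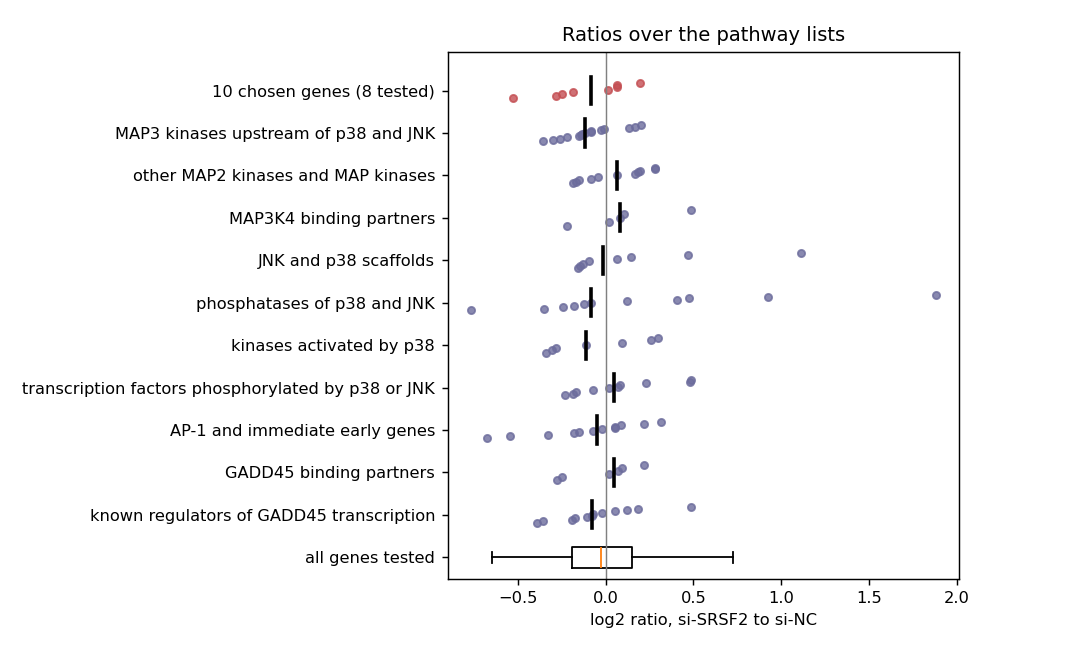
Log2 ratio of the knockdown to the control library (x axis) of each gene with a mean of at least 1 CPM in the 10 chosen genes and in 10 pathway lists, with a black bar at the median; the box shows the quartiles of all 12620 genes tested and its whiskers the central 95%. DUSP16 (1.88) and MAPK8IP1 (1.11), both of few counts, lie farthest to the right and DUSP1 (-0.77) farthest to the left, while the 8 chosen genes lie between -0.53 and 0.20.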

How the data were processed

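RNA was measured by strand-specific poly(A) RNA-seq in 2 libraries of RKO cells, grouped by GEO's labels. The authors trimmed and filtered the reads, aligned them to GRCh38 with HISAT2 (version 2.0.4 in the submitters' processing notes) and counted them with HTSeq. What they deposited is a table of raw counts by gene symbol. The strand setting of HTSeq is not given in the sources used here, which leaves overlapping genes uncertain. The MAP3K4 junction reads tabulated by the study were not used here.

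Counts were scaled with edgeR 4.0.16 (TMM, R 4.3.3) and expressed as CPM. Ratios were log2(CPM + 0.5) over 12620 genes whose mean reached 1 CPM, with 95% Clopper-Pearson intervals (SciPy 1.17.1). With 1 library per group no test was run. The calculations were tested on simulated data. Lengths, exons and transcripts came from GENCODE release 44. The named genes were the 10 genes, SRSF2, and in each list the genes at least 1.5-fold changed and the most abundant, highest and lowest above 5 CPM. The result for 1 gene of these is not reported here. In the list of MAP3 kinases 1 of 17 symbols was not matched. The 10 genes and the lists were chosen with earlier results of these data known. As alternatives the libraries were scaled by DESeq2 1.42.0 size factors, by upper quartiles or by their totals alone, the pseudocount was set to 0.1 or 2 CPM, the filter on low counts was changed, and lengths were taken from the union of exons. The family shares and the comparison with genes above 30 CPM were added after seeing the data.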

Additional observations from a re-analysis of the deposited data

How the results depend on the processing

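No paired analysis was possible because the conditions hold 1 library apiece, and for the same reason none could be left out. Under the other scalings and pseudocounts the log2 ratio of GADD45B ran from -0.54 to -0.50, that of GADD45A from 0.19 to 0.22, that of MAPK9 from -0.29 to -0.26, that of MAP2K3 from -0.25 to -0.22, that of MAP2K4 from -0.19 to -0.16, that of MAP3K4 from 0.01 to 0.04 and those of MAPK8 and MAPK14 from 0.07 to 0.09, all inside the counting intervals of the reported values. GADD45G, with 16 and 7 counts, ran from -0.63 to -0.18. Upper-quartile factors shifted the median of all genes most, by 0.0232. In that setting, with intervals added after seeing the data, 3 of the 8 genes had an interval above a ratio of 1 instead of 1, MAPK8 and MAPK14 joining GADD45A. Among the list genes, the intervals of MAPKAPK2, MAP2K1, MAP3K9 and FOSL2 then came to hold 1, and those of MAP3K10, PCNA, TRAF4, GSK3B, STRAP, ELK4 and CCNB1 to leave it out, which made the MAP3 kinases 2 above and 4 below and the MAP3K4 partners 3 above and 1 below. PCNA also left it out with DESeq2 size factors and total counts. List medians ran from -0.11 to 0.01 for the scaffolds and from -0.12 to 0.02 for the phosphatases, and the medians of the other lists kept their sign. The intervals of all 8 genes lay as reported against a ratio of 1 with DESeq2 size factors and with total counts.

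The number of genes past a fold depended on how low counts were treated, by construction of the pseudocount and filters. As reported, 107 genes were at least 2-fold higher and 63 lower, and 527 and 444 at least 1.5-fold. A pseudocount of 0.1 CPM gave 185 and 120 at 2-fold. A pseudocount of 2 CPM gave 28 and 17 at 2-fold and 254 and 220 at 1.5-fold. Without a filter the numbers were 239 and 109 at 2-fold and 1262 and 837 at 1.5-fold. Over genes whose mean reached 5 CPM the numbers were 26 and 16 at 2-fold and 202 and 237 at 1.5-fold. Depth limits GADD45G and MAP2K6 most, for which no direction can be read.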

Other observations

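Further values of AP-1 and immediate early genes are given here. FOS had 384 counts in the control and 189 in the knockdown, or -0.55 as a log2 ratio (95% Clopper-Pearson interval -0.82 to -0.31), and ATF3 had 323 and 186 counts with -0.33 (-0.61 to -0.07). EGR1 (0.06, interval -0.09 to 0.20), IER2 (0.09, -0.05 to 0.22) and FOSB (0.05, -0.13 to 0.23) had intervals that held 0, and ZFP36 was at 0.22 (0.04 to 0.41). These genes were chosen after their values were seen.

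Of the JUN genes, JUND had 368 counts in the control and 376 in the knockdown, a log2 ratio of 0.48 (0.28 to 0.70), and JUNB had 583 and 381 with -0.15 (-0.35 to 0.03). JUN made up 91.9% of the counts of the 3 genes in the control (91.4% to 92.4%) and 90.8% in the knockdown (90.15% to 91.4%). The intervals of these shares overlapped at their ends. Those of the ratios of JUN and JUNB also overlapped, while that of JUND lay above both.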
